A study of Mus musculus with 20 samples.

Results

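Lung RNA of mice fed flaxseed without radiation was compared with lung RNA of untreated mice. The members were chosen by the treatment label alone, which gave 10 of the 20 arrays of the series. Of these, 5 came from mice on a 10% flaxseed diet for 21 days with no radiation, and 5 from mice labelled as receiving no treatment. All were C57BL/6 mice, an inbred laboratory strain, with 1 array for each mouse. The other 10 arrays came from mice given 13.5 Gy to the chest and killed 48 hours later, 5 on the flaxseed diet and 5 without it, and they were normalized and fitted together with the compared arrays, so they share in the estimate of the spread. Age, sex and the composition of the diet without flaxseed are not given in the labels.

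Flaxseed, the seed of the linseed plant, is rich in alpha-linolenic acid, an omega-3 fatty acid, and in lignans, plant phenols that gut bacteria turn into compounds the body absorbs. It also carries much fibre. Whole lung mixes epithelium, endothelium, fibroblasts, smooth muscle, resident macrophages and blood cells, so a spot that changes in such RNA cannot tell fewer cells of a type from less RNA per cell.

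The array carried 9600 spots, read as 1 channel of radioactive signal with a local background for each spot. No file links a spot number to a gene, and 0 spot names matched a mouse gene symbol, synonym or locus tag, so spots are given by number and the lung label could not be checked against marker genes. Each array was read once, and levels below are log2 of background-corrected intensity after the arrays were brought to a common distribution. Median signal was 100.7 ± 17.7 scanner units on flaxseed arrays and 102.9 ± 8.2 on untreated arrays (SD, n = 5 each). Median local background was 18.9 ± 3.83 on flaxseed arrays and 19.1 ± 2.87 on untreated arrays. Median signal over background was 5.5 ± 0.347 on flaxseed arrays and 5.56 ± 0.655 on untreated arrays. None of 6 such array-wide measures differed between the diets in an exact two-sided permutation test, with unadjusted p between 0.222 and 0.937, where 5 arrays against 5 can go down to 0.00794. Correlations of log2 values across spots ran from 0.962 to 0.975 within flaxseed arrays, 0.966 to 0.974 within untreated arrays and 0.944 to 0.974 between them; spots are not independent replicates.

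The comparison asked what 3 weeks of dietary flaxseed changed in lungs that were not irradiated. A small set of spots moved, slightly more of them down than up, and the median change in either direction was under 2-fold. Spot gene4884 showed the largest rise among spots that passed and gene1092 the largest fall. Of 9600 spots, 19 rose and 23 fell in limma (adjusted p under 0.05), which is 0.198% and 0.24% of all spots tested, or 0.438% together. At an unadjusted p under 0.05 there were 638 higher spots (6.65%) and 639 lower spots (6.66%).

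Spot gene4884 stood at 11.07, 10.87, 10.87, 11.19 and 10.57 (log2 level) on the 5 flaxseed arrays and at 9.83, 10.28, 10.23, 9.05 and 9.78 on the 5 untreated arrays. Every flaxseed array lay above every untreated array, and the untreated arrays were the more scattered. In the scanner's own units its signal was 1844, 1925, 1769, 2071 and 1347 on flaxseed arrays, against 903, 1229, 1371, 444 and 845 on untreated arrays. On that unnormalized scale the lowest flaxseed array fell just under the highest untreated array. The normalized difference was 1.08 ± 0.2 (log2, SE), a 2.11-fold higher level with flaxseed (95% interval 0.67 to 1.49 on the log2 scale; limma adjusted p = 0.0241).

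Spot gene5478 stood at 9.90, 10.31, 10.29, 10.91 and 10.28 on flaxseed arrays and at 9.22, 10.10, 9.43, 8.84 and 8.96 on untreated arrays. Here the groups overlapped, because untreated replicate 2 was higher than flaxseed replicate 1. The difference was 1.03 ± 0.21 (log2, SE; limma adjusted p = 0.0407).

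Spot gene1092, which ranked 41st of all spots by brightness, stood at 12.82, 11.67, 11.78, 11.95 and 12.74 on flaxseed arrays and at 13.55, 13.25, 13.39, 13.62 and 13.85 on untreated arrays. Its scanner signal was 6899, 3737, 3458, 3758 and 7470 on flaxseed arrays, against 13593, 11459, 15925, 11628 and 16852 on untreated arrays. Every flaxseed array lay below every untreated array on both scales. The flaxseed arrays formed an upper pair and a lower trio, and the change was -1.34 ± 0.23 (log2, SE), a 2.53-fold higher level in untreated lungs (limma adjusted p = 0.0241).

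Spot gene5063 was far dimmer. It stood at 6.88, 6.67, 6.94, 7.29 and 7.64 on flaxseed arrays and at 8.39, 8.42, 8.30, 8.79 and 7.89 on untreated arrays, again without overlap. Its signal was 3.38 to 9.12 times its local background on flaxseed arrays and 13.1 to 19.4 times on untreated arrays. The change was -1.28 ± 0.23 (log2, SE; limma adjusted p = 0.0241). It is sensitive to how background is handled, with a log2 change of -1.83 in the authors' table values, -1.82 after plain background subtraction and -1.58 without background correction.

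**Figure D1:**
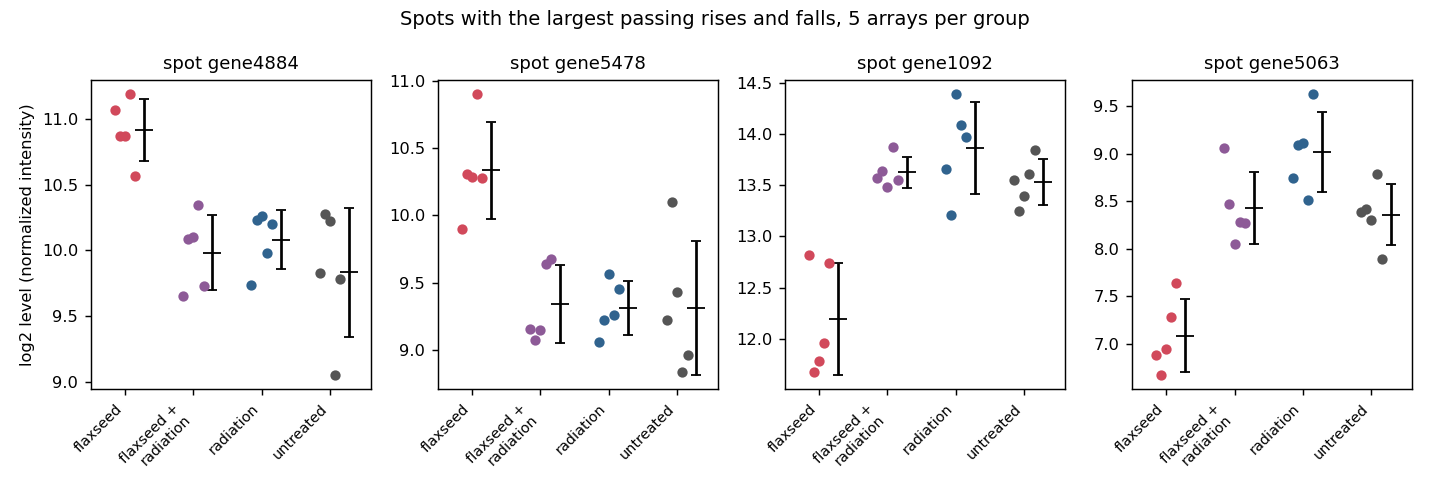
Log2 level of the 2 spots with the largest passing rises and the 2 with the largest passing falls, by group on the horizontal axis, 1 point per array, with group mean and SD (n = 5) as the black bar. The flaxseed points stand above untreated for gene4884 and gene5478, with overlap for gene5478, and below untreated for gene1092 and gene5063, while the irradiated groups lie nearer to untreated than to flaxseed in gene4884, gene5478 and gene1092, and the radiation group stands above untreated for gene5063 (means of 9.02 and 8.36).

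The 19 spots that rose had log2 changes from 0.43 to 1.08 with a median of 0.71, or 1.64-fold. The 23 that fell had changes from -1.34 to -0.64 with a median of -0.89, or 1.86-fold. Over all 9600 spots the median change was 0.00 (0.00197) and the 5th and 95th percentiles were -0.43 and 0.42. The groups did not overlap at 17 of the 19 and at 21 of the 23; over all spots, flaxseed arrays all lay above untreated arrays at 1.69% of spots and all below at 1.75%. Since the test picked these spots for their separation, that count describes them and supports nothing further. More than 2-fold change was seen at 3 of the spots that rose and 9 of those that fell.

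Size alone did not decide which spots passed. Among all spots, 167 were over 1.5-fold higher with flaxseed and 229 over 1.5-fold lower, and 12 and 23 of these passed. The largest rise of any spot, 1.25 on the log2 scale, did not pass (limma adjusted p = 0.405). A typical spot had a 95% interval reaching 0.297 to either side of its log2 change. The spot nearest inside the threshold had a change of -1.18 (limma adjusted p = 0.0495) and the nearest outside -0.87 (limma adjusted p = 0.053). Counting the latter, 74 spots lay between limma adjusted p of 0.05 and 0.1.

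The count changed widely when single mice were left out. It was 3 without flaxseed replicate 2, without flaxseed replicate 4 or without untreated replicate 4, and 6 without untreated replicate 1. Leaving out untreated replicate 5 gave 20, leaving out flaxseed replicate 3 gave 23 and leaving out untreated replicate 2 gave 24. The count was 29 without flaxseed replicate 1, 40 without untreated replicate 3 and 50 without flaxseed replicate 5. Each such fit also has an array fewer, and that loss was not separated from the mouse left out. Only 2 of the 42 spots, both among those that fell, passed in all 10 fits with a mouse left out, and 20 passed in 2 fits or fewer. The calls held in 6 of 10 fits for gene4884, gene1092 and gene5063 and in 2 of 10 for gene5478.

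The balance of rises and falls also moved with the processing. Among changes of scaling, median scaling gave 5 higher and 31 lower spots and cyclic loess 10 and 16. Changes of the background step gave 17 and 39 without background correction and 1 and 8 after background subtraction. The authors' table gave 1 and 8 as well. Under median scaling, in the authors' table and after subtraction the falls of gene1092 and gene5063 passed and the rises of gene4884 and gene5478 did not. The rises were about as large there, at 0.98, 1.05 and 1.13 (log2) for gene4884 and 0.92, 1.01 and 1.10 for gene5478. When only the compared groups were fitted, the rises again did not pass (limma adjusted p = 0.0671 for gene4884 and 0.0943 for gene5478).

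**Figure D2:**
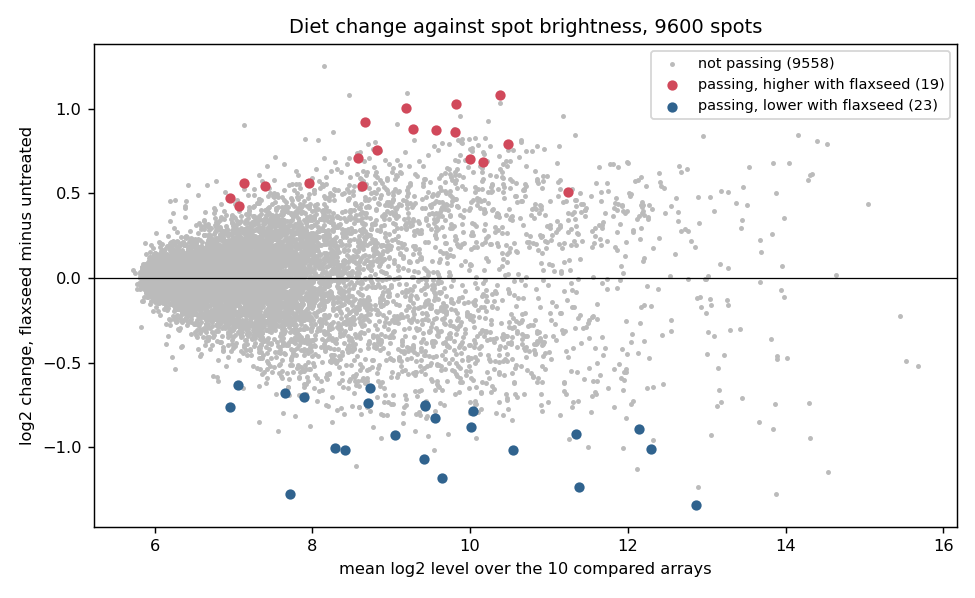
Log2 change, flaxseed minus untreated, on the vertical axis against mean log2 level of the spot over the 10 compared arrays, 1 point per spot. The 19 passing rises (red) and 23 passing falls (blue) lie in the middle and upper range of brightness, where the spread of changes over all spots is also widest.

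Bright spots gave most of the calls. With spots split into 5 classes of 1920 by their mean over the 10 compared arrays, the brightest class held 14 of the rises and 17 of the falls, or 1.61% of its spots. The next 2 classes held 1 and 4 rises and 4 and 2 falls, and the 2 dimmest classes held 0 of either. Median signal over background was 27.2 in the brightest class and 1.67 in the dimmest. Changes spread less among dim spots, with an SD over spots of 0.431 (log2) in the brightest class and 0.0768 in the dimmest. The constant added during background correction shrinks changes of dim spots, but how much of this difference it made was not tested.

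Whether bright spots as a class differed with diet depended on how they were ranked. Of the 100 spots that were brightest on the compared arrays themselves, 52 had a higher mean with flaxseed and 48 a lower one. These 100 spots held 32.6% ± 1.95 of all signal above background on flaxseed arrays and 34.3% ± 1.33 on untreated arrays (SD, n = 5; exact permutation p = 0.151). Ranked instead on the irradiated arrays, the 100 brightest spots gave another picture. They held 25.4% to 28.8% of the signal on flaxseed arrays and 31% to 32.7% on untreated arrays, without overlap. The means were 27.1% ± 1.6 on flaxseed arrays and 31.7% ± 0.832 on untreated arrays (exact permutation p = 0.00794, the smallest 5 arrays against 5 can give; adjusted 0.0317 over 4 measures of this kind, all chosen after the data were seen). Of these 100 spots, 67 had a lower mean with flaxseed, with a median log2 change of -0.28; 79 of them were also in the first ranking. The ranking therefore decided the result, and why the 2 rankings gave different values was not tested.

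The single brightest spot of each array was 400 to 675 times the array's median spot on flaxseed arrays and 616 to 1035 times on untreated arrays, above background. The means were 571 ± 109 on flaxseed arrays and 887 ± 169 on untreated arrays (SD, n = 5; exact permutation p = 0.0238, adjusted 0.0476). The difference did not pass without flaxseed replicate 2 or flaxseed replicate 4 (exact permutation, adjusted p = 0.0635 each). The ranges overlapped, since untreated replicate 2 lay below 2 of the flaxseed arrays.

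**Figure D3:**
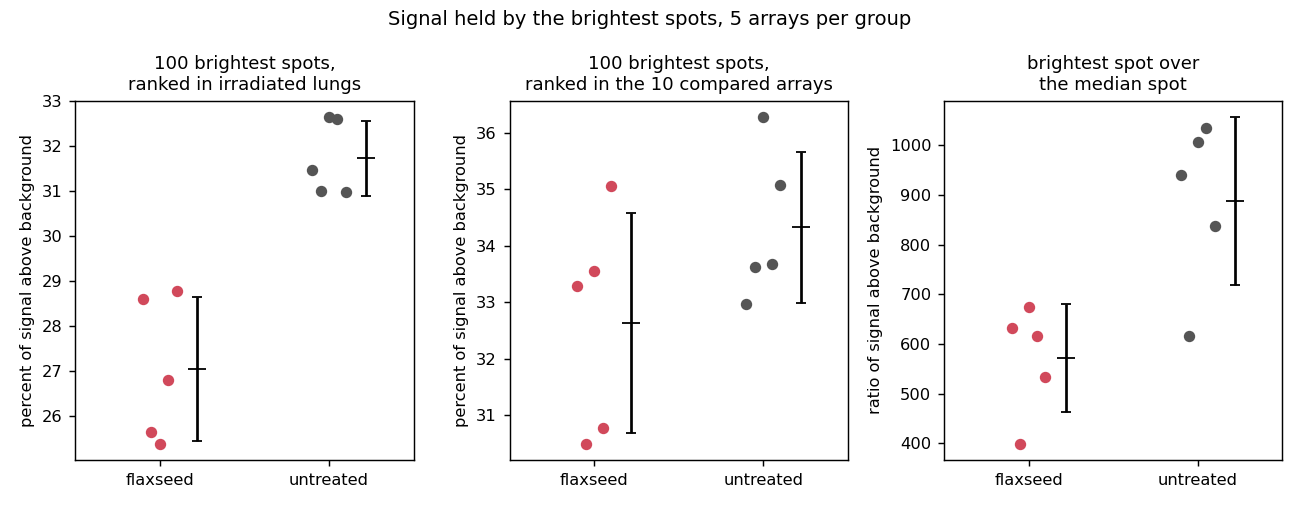
Share of an array's signal above background held by the 100 brightest spots, ranked on irradiated arrays (left) or on the 10 compared arrays (middle), and the brightest spot over the median spot (right), 1 point per array, with mean and SD (n = 5). Flaxseed lies wholly below untreated at left, at 25.4% to 28.8% against 31% to 32.7%, and overlaps it in the other panels; the vertical axes do not start at 0.

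Irradiated lungs showed whether the same diet moved the same spots in other mice. That diet comparison uses none of the 10 compared arrays, but its arrays were normalized with them and entered the spread behind the choice of the 42 spots. Fitted on the compared groups alone, 35 spots passed, of which 20 were among the 42. The 19 spots that rose without radiation had a median diet change of 0.01 (log2) in irradiated lungs, with a range of -0.44 to 0.38, and 10 of them were higher. The 23 that fell had a median of 0.00 (0.00251), with a range of -0.59 to 0.44, and 11 of them were lower. An unadjusted p under 0.05 was reached in the same direction by 1 of the 19 and 3 of the 23, and in either direction by 3 and 5, against 5.4% of all spots.

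The 4 named spots followed this pattern to different degrees. For gene4884 the flaxseed-minus-no-flaxseed change in irradiated lungs was -0.10 (95% interval -0.51 to 0.31), and for gene5478 it was 0.03 (-0.41 to 0.47). For gene1092 it was -0.24 (-0.71 to 0.23). For gene5063 it was -0.59 (-1.06 to -0.12), the same direction as without radiation, but this did not pass over all spots (limma adjusted p = 0.846).

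A direct test of the difference between the diet changes called no spot. In limma 0 of 9600 spots passed (0%), against 971 (10.1%) by unadjusted p under 0.05. The lowest adjusted p of any spot was 0.0616, reached by 1 of the 42. For gene4884 the difference was -1.18 ± 0.28 (log2, SE; limma adjusted p = 0.154), and for gene1092 it was 1.10 ± 0.32 (limma adjusted p = 0.287). For gene5063 it was 0.68 ± 0.32 (limma adjusted p = 0.482). Of the 42 spots, 39 had an unadjusted p under 0.05 for the difference, but the contrast that chose them is one side of that difference, so nothing is read from this count. Other settings did call spots, 6 under median scaling and 9 without the dimmest 33.3% of spots, 5 of the 42 being among them in either case, and 1 to 3 under 4 more settings. Whether the diet change differed with radiation at single spots thus depended on the processing.

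Over the 42 spots, levels in the irradiated groups had medians near untreated, but single spots departed from it. For gene5063 the change from untreated was 0.66 with radiation alone (log2; limma adjusted p = 0.454). Median log2 change from untreated was 0.08 with flaxseed and radiation and 0.10 with radiation alone at the 19 spots that rose. At the 23 that fell these medians were 0.10 with both and 0.04 with radiation alone. Each of these comparisons shares the untreated arrays with the one that chose the spots. Measured from the untreated mean, the 19 averaged 0.63 to 0.88 on the 5 flaxseed arrays, -0.02 to 0.16 with flaxseed and radiation, -0.03 to 0.17 with radiation and -0.17 to 0.12 on untreated arrays. The 23 averaged -1.07 to -0.78 on flaxseed arrays, -0.04 to 0.16 with flaxseed and radiation, -0.07 to 0.14 with radiation and -0.20 to 0.11 on untreated arrays.

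**Figure D4:**
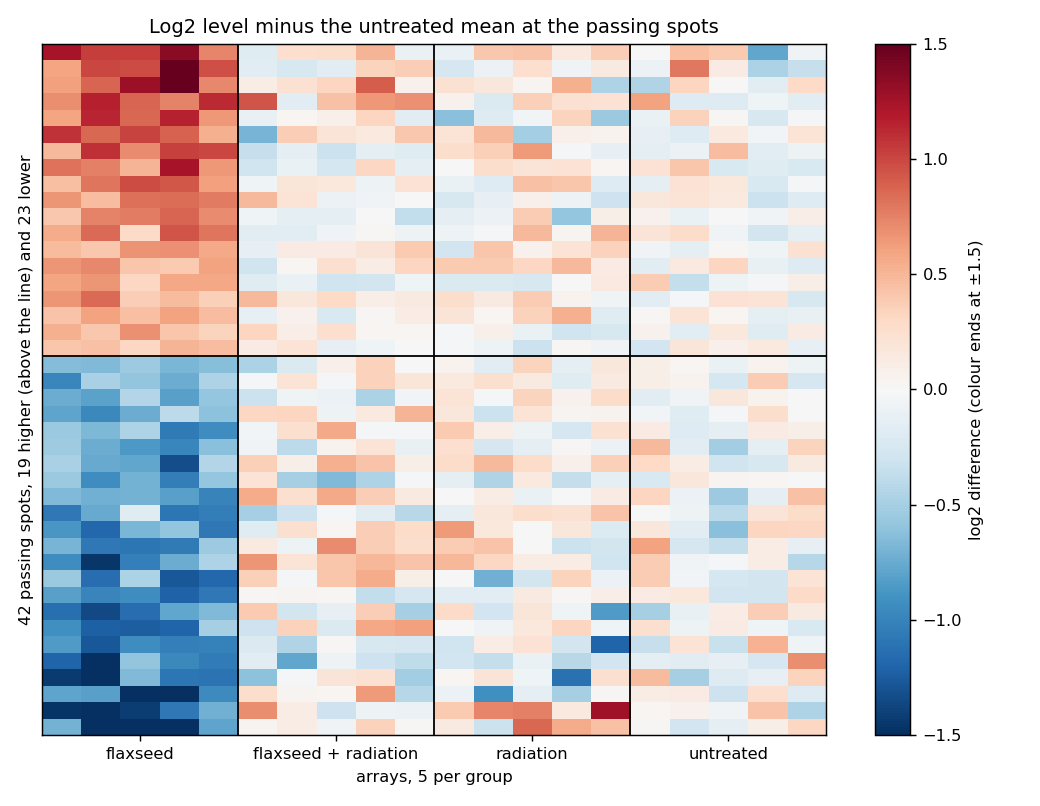
Log2 level minus the untreated mean for the 42 passing spots (rows, in order of the diet change) on all 20 arrays (columns, 5 per group), with red higher and blue lower. The 19 upper rows are red and the 23 lower rows blue across the 5 flaxseed arrays, as the choice of spots sets, and pale on most arrays of the other groups.

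Position on the array moved with the diet change. The rows of the files do not run in the order of the spot numbers, and all 9600 numbers fit a raster of 80 rows and 120 columns made of 384 subgrids of 5 by 5 spots. Local background correlated between spots next to each other in this raster, with r of 0.393 to 0.529 along rows and 0.37 to 0.501 along columns over the 20 arrays, and 0.153 to 0.24 at 10 columns apart. The raster is thus read as the printed layout; no label states it.

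Changes were not spread evenly over this raster. The median change in windows of 11 by 11 spots ran from -0.13 to 0.19 on the log2 scale. Of the 19 spots that rose, 17 lay in windows with a positive median, and of the 23 that fell, 22 lay in windows with a negative median, while 51.1% of all spots lay in positive windows. The spots were chosen by the same change on the same arrays as the window medians, so these counts are a description only. Window medians were small beside the spots' own changes, at a median of 0.08 for the rises and -0.05 for the falls. Of the falls, 8 lay in the top 5 rows of the raster, a strip of subgrids that held 0 of the rises and whose median change was -0.03. It is named because it held the most falls of the 16 such strips, so its count is a description only.

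Both named rises came from the same area of the array. Spot gene4884 lies at raster row 42 and column 19 and gene5478 at row 46 and column 18, where window medians were 0.13 and 0.15. Around gene4884, 7 of 8 adjacent spots were also higher with flaxseed, and the brightest of them exceeded it by 2.46 on the log2 scale. The brightest spot adjacent to gene5478 was dimmer than it, with a difference of -2.12 on that scale. Around gene1092, at row 9 and column 97, 4 of 8 adjacent spots were lower, and the window median was -0.02. Around gene5063, at row 43 and column 53, 7 of 8 were lower and the window median was -0.04.

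With the window median removed from each array, 56 spots passed, 20 higher and 36 lower, and 35 of the 42 were among them. The changes were then 0.93 for gene4884, -1.29 for gene1092 and -1.21 for gene5063 (log2), all passing, and 0.88 for gene5478, which did not (limma adjusted p = 0.054). Of the spots that rose, 4 had another such spot within 2 positions, and of those that fell, 10 did. For 0 of the 42 was the near one of opposite direction. No share over all spots stands beside these counts, so nothing further is read from them. A spot over 4 times brighter lay next to 8 of the 19 rises and 7 of the 23 falls, against 60.1% of all spots. That share takes in dim spots, while the brightest class held 14 of the rises and 17 of the falls. Brightness was not matched, so nothing is read from the gap. With all spots beside one over 4 times brighter left out, 48 passed, 27 of them among the 42.

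Local background was measured beside each spot, and it moved with the signal. On scanner values without normalization, background was higher on flaxseed arrays at all 19 rises, with log2 changes of 0.09 to 0.52. At 22 of the 23 falls it was lower, with changes down to -1.17, at gene1092, and it was level at gene5063. Among all spots this unnormalized background was higher at 43.4% and lower at 56.6%. Of the 361 spots over 1.5-fold changed that did not pass, 94.2% had background changing in the same direction. Over all 9600 spots, background and signal changes correlated at r = 0.503, on the same arrays. Background was tested in limma after it too was brought to a common distribution over arrays, and 0 spots passed (smallest adjusted p of 0.471). An unadjusted limma p under 0.05 was reached for background at 653 spots (6.8%), and at 22 of the 42. Those 42 were chosen by signal on the same arrays. Whether signal spreads into the area read as background was not tested.

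**Figure D5:**
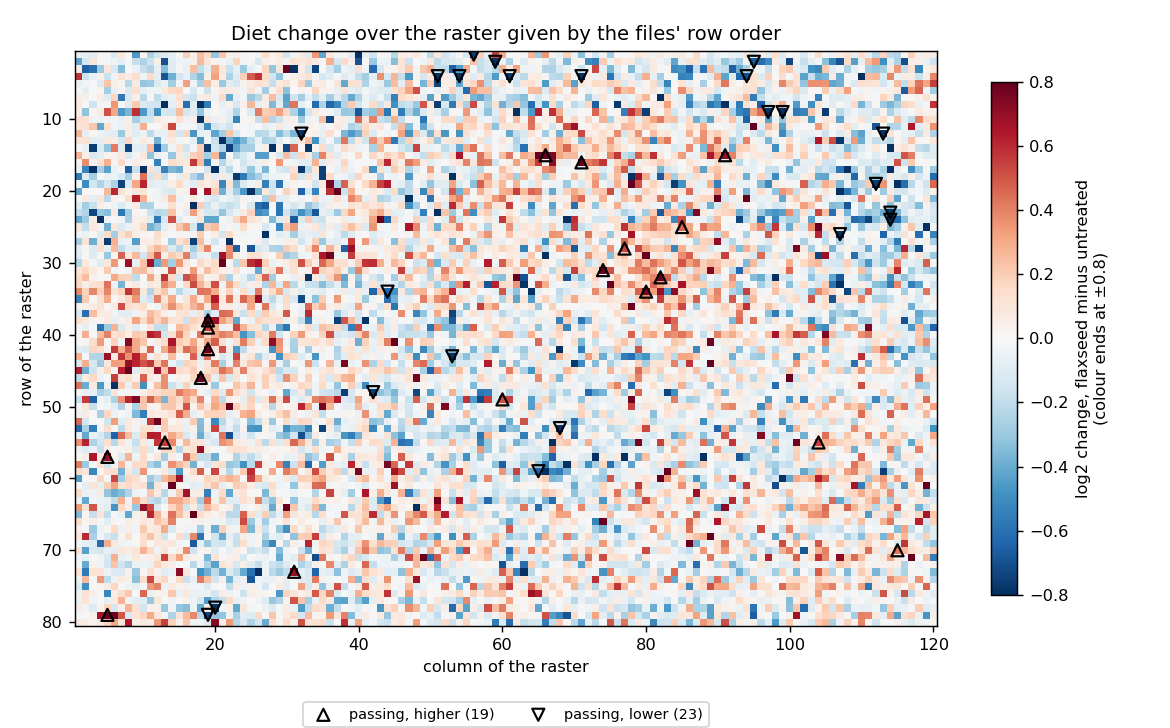
Log2 change, flaxseed minus untreated, for all 9600 spots placed by row and column of the raster taken from the order of the files, with triangles at the 42 passing spots. Upward triangles (higher) sit mostly in reddish areas and downward triangles (lower) in bluish ones, 17 of 19 and 22 of 23 by the sign of the median in windows of 11 by 11 spots. The triangles mark spots chosen by the change that the colours show.

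Changes also followed the place of a spot within its 5 by 5 subgrid. Mean change over the 384 spots of a place ran from -0.12 at the centre of the subgrid to 0.13 at its last place. Place in the subgrid, with 25 places, accounted for 5.31% of the variance of the change over spots. The subgrid itself, with 384 subgrids, accounted for 14.3%. These shares cannot be compared with each other, since more groups take up more of the variance even where position has no part. Of the 23 falls, 6 shared a single place, in row 4 and column 4 of the subgrid, where the mean change was -0.03. That place is named because it held the most falls of the 25 places, so its count too is a description only. With means by place and by row and column of subgrids removed from each array, 67 spots passed, 27 higher and 40 lower, and 39 of the 42 were among them.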

How the data were processed

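Total RNA from mouse lung was extracted with guanidinium thiocyanate and phenol-chloroform and labelled with 33P, a radioactive phosphorus isotope, by reverse transcriptase, per the labels' protocols. Per the file headers, the deposited scanner files give a signal median and a background median per spot, as linear intensity without normalization. The authors' deposited table holds intensity that matched signal minus background, divided by its median on the array, at 95.9% to 97.7% of spots of the compared arrays (relative tolerance 0.001). It is linear, is not centred per spot, has column medians of 0.999 to 1, and served as an alternative. All 10 columns of the compared arrays match their own scanner file, and 18 of 20 do in all; the pair that does not, replicates 4 and 5 of the radiation group, is exchanged, and both stay within that group. The table holds 0 columns from outside the series. The labels do not give the scanner, image software or array lots.

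Background was corrected by normexp (offset 50), arrays were quantile-normalized, and log2 values of all 4 groups were fitted spot by spot with limma 3.58.1 in R 4.3.3 (16 residual degrees of freedom), with Benjamini-Hochberg adjustment over 9600 spots at 0.05. Named spots are the 2 largest rises and 2 largest falls that passed. Array-wide measures were tested by exact permutation over 252 splits. No gene or marker list could be applied. The fit was tested on simulated arrays whose noise was drawn independently for each spot and array, so neighbouring spots shared none of it. The comparison and its tests were chosen with earlier results of these data known. Alternatives changed the normalization, background correction, source of values, filter, variance model, position terms, arrays fitted and threshold.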

Additional observations from a re-analysis of the deposited data

Results flagged for a closer look

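In 36 sets of 5 arrays, 0 had a single array standing far from the other arrays of its group by Dixon's test at the 95% level, where chance gives about 1 in 20. These sets did not take in each of the 42 spots, and some of those do hold a lone array. Measured from the untreated mean (log2), gene2969 stood at 0.69 on untreated replicate 5 and at -0.25 to -0.12 on the other untreated arrays. For gene2151 untreated replicate 1 stood at 0.60 and the other untreated arrays at -0.19 to -0.06.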

How the results depend on the processing

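No paired analysis was possible because the labels number the mice through the series and share no number across diets. This numbering runs group by group. If the arrays were handled in that order, its effect could not be told apart from diet. The number of spots that passed for flaxseed against untreated, 42 in limma, was 26 with cyclic loess, 9 both in the authors' table and after background subtraction, 81 without the dimmest 33.3% of spots, 24 with the trend and robust options, 67 with position means removed and 116 at a threshold of 0.1. It ran from 3 to 50 when single mice were left out and stayed within 1.5 times of 42 under 7 of 14 other settings. The cause was not tested, except that fewer spots are tested without the dimmest. The test of the difference between diet changes, 0 in limma, called 6 under median scaling, 1 with background subtraction, 9 without the dimmest 33.3%, 1 with position means removed, 2 with the local trend removed, 3 without spots beside a brighter spot, and 0 to 3 without single mice. The local trend and the brighter-spot settings were added after the data were seen. The median change of the 100 spots brightest in irradiated lungs, -0.28, was -0.37 under median scaling, -0.21 with cyclic loess, -0.34 in the authors' table and 0.015 when spots were ranked on the compared arrays.

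Differences between diets in 4 of 6 array-wide measures crossed 0 when single mice were left out, and none of these passed: -8.43 to 3.07 for median signal, -1.27 to 1.04 for median background, -0.25 to 0.19 for signal over background, and -0.10 to 1.24 for the percent of spots under 2 times background. The percent of log2 variance by column and by row of the spot number kept its sign, at -0.325 to -0.137 and 0.0451 to 0.145. The ratio of the brightest to the median spot differed by -383 to -273. The share of signal in each array's own 100 brightest spots differed by -2.36 to -1.21 percentage points and passed only without flaxseed replicate 5. Dim spots limit the rest: the 2 dimmest of the 5 brightness classes gave no call, and 16.7% of spots on flaxseed arrays and 16.1% on untreated arrays were under 2 times background.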
